A study of Mus musculus with 36 samples.

Results

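The 8 genes described here are Trp53, which encodes the transcription factor p53, and 7 genes known as its transcriptional targets, namely Mdm2, Cdkn1a, Ccng1, Sesn1, Trp53inp1, Zmat3 and Phlda3. They were listed by name, with earlier results of these data known, and all 8 were found among the 40205 features counted in each library. RNA had been sequenced from neurosphere cultures of neural stem cells (NSCs) and from the extracellular vesicles (EVs) that these cells released into the medium. The question was whether the p53 transcripts differed with ethanol, in the cells or in the EVs, and between EVs and their cells of origin.

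The cultures came from the dorsal telencephalon, the future cerebral cortex, of mouse fetuses on gestational day 12.5, and every group shared strain, genotype and tissue. The labels give the strain as C57BL/6J and the genotype as WT, whereas the study's methods name C57BL/6J (Ai14), a line that carries a Cre-dependent fluorescent reporter. Tissue of 1 pregnancy was pooled by fetal sex, so each of 3 pregnancies (sets 3, 4 and 5) gave a female and a male culture, 6 cultures in all. Each culture was kept for 5 days without alcohol or at 120 or 320 mg/dL ethanol, between passages 7 and 10, with 4 flasks per sample, and gave 1 EV and 1 cell library at each dose. This makes 36 libraries, 3 in each of 12 combinations of EV or cell, sex and dose, and a culture is a pool of fetuses rather than 1 animal. Cultured neurospheres lack the vessels, blood and immune cells of the fetal brain.

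In cells, p53 protein is kept scarce because Mdm2, a ubiquitin ligase that p53 itself switches on, marks it for degradation, so the pair forms a negative feedback loop. When DNA damage, nucleotide shortage or oxidative stress breaks the loop, p53 accumulates and switches on genes that halt the cell cycle, repair DNA, limit oxidants or start apoptosis. Regulation of p53 is mainly on the protein, so the level of the Trp53 transcript is not a measure of its activity, and target transcripts are often read in its place. In the embryonic telencephalon, excess p53 activity is known to reduce the number of neural progenitors.

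p53 binds DNA as a tetramer at a pair of 10-base elements, each with the core CNNG. All 8 gene starts were searched from 3000 bases before to 3000 bases after the annotated starts for the p53 consensus, with up to 13 bases between the elements. Because the consensus is its own reverse complement, both strands were covered in 1 pass. With no spacer and at most 1 mismatch outside the cores, a match was present at Cdkn1a, Ccng1 and Zmat3, and in 0.965% of 21757 protein-coding windows of this size. With a spacer of up to 13 bases a match with at most 1 mismatch was also present at Trp53inp1, but 17.1% of all windows hold such a match. At Mdm2 and Sesn1 no match with up to 2 mismatches was found in this window, whereas 62.2% of all windows hold one. The 5 matches below, read from GRCm39 (the build also called mm39, that of the counts), are shown because p53 is known to act through such elements. Capitals mark the 2 CNNG cores, and each is written 5′ to 3′ on the strand of its gene.
Cdkn1a, chr17:29309902-29309921, plus strand, 1 mismatch, upstream: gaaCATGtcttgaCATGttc
Ccng1, chr11:40646289-40646308, minus strand, 1 mismatch, upstream: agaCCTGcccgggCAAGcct
Ccng1, chr11:40645763-40645782, minus strand, 1 mismatch, intron: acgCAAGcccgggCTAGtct
Trp53inp1, chr4:11155112-11155132, plus strand, 0 mismatches, spacer of 1, upstream: aaaCATGtccaggaCTAGcct
Zmat3, chr3:32418480-32418499, minus strand, 0 mismatches, exon: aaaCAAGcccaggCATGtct
The Cdkn1a match lies 2826 bases before the start of the canonical transcript, the first Ccng1 match 161 bases before it and the Trp53inp1 match 1290 bases before it, whereas the Zmat3 match lies 1418 bases after the canonical start. A match of letters is a description, and no binding was measured in these samples.

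On GRCm39 the members are spread over 6 chromosomes. Trp53 (chr11:69469669-69482701, plus strand) and Ccng1 (chr11:40639377-40646148, minus) share chromosome 11, and Mdm2 (chr10:117524780-117546730, minus) and Sesn1 (chr10:41685931-41784423, plus) share chromosome 10. Cdkn1a lies at chr17:29309936-29319701 on the plus strand, Trp53inp1 at chr4:11156412-11175230 on the plus strand, Zmat3 at chr3:32388941-32420163 on the minus strand and Phlda3 at chr1:135693809-135697686 on the plus strand. Exons of Trp53 overlap Wrap53 on the opposite strand over 3.6% of their length, those of Cdkn1a overlap the noncoding gene Dino over 8.3%, and those of Sesn1 overlap Cep57l1 over 10.9%. The library kit keeps the strand, but which strand setting the reads were counted with is not given in the sources used here, so the part of these neighbours in the counts was not tested. Of the 31-base words in the members' exons, between 0% (Phlda3) and 13.7% (Cdkn1a) also occur in other genes, and for Trp53 9.05%, in part in its pseudogene Trp53-ps.

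Cell libraries held 26566061 to 55282322 counts and EV libraries 959217 to 5509952, so low genes carry a larger counting error in EVs. Levels are given in CPM, a library's counts brought to a common total and scaled by the trimmed mean of M values (TMM) over the genes tested, and a CPM in EVs is a share of the EV RNA, not an amount per vesicle. The summed CPM of 10 NSC markers was 1900 to 3830 in cells and 659 to 1240 in EVs, with Nes, Vim, Fabp7 and Pax6 detected, while Sox2, a defining gene of NSCs, was listed at 0 in all 36 libraries. Markers of neurons summed to 476 to 994 CPM in cells. Most of this was Map2 (467 to 973 CPM), while Rbfox3 reached at most 121, Dcx 14.9, Tubb3 7, Stmn2 0.581 and Neurod1 0.255. Markers of astrocytes summed to 21.4 to 269 CPM in cells (with Aqp4 at 0), with Gfap alone at 10.7 to 226. Those of oligodendrocyte lineage summed to 8.36 to 59.3 in cells. Those of microglia reached at most 0.667 CPM in cells and 10.3 in EVs, of endothelium 2.48 and 14.3, and of red cells 0.0851 and 1.19. In these pooled cells, fewer cells of a type and less RNA per cell cannot be told apart.

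Per kilobase (kb) of exon, the scale on which genes can be compared, Ccng1, which encodes cyclin G1, had the highest level of the 8 genes in cells, at 47.8 ± 8.74 CPM per kb (SD over 18 libraries). Trp53inp1, a stress-induced nuclear protein linked to autophagy and apoptosis, followed at 16.1 ± 6.58. Phlda3, an inhibitor of Akt signalling, had 8.76 ± 3.49, Mdm2 8.61 ± 2.05 and Cdkn1a, the cyclin-dependent kinase inhibitor p21, 7.81 ± 2.38, and these 3 neighbours did not differ beyond their spread. Sesn1, which restrains mTORC1 and oxidants, had 3.39 ± 0.925, Zmat3, a zinc finger RNA-binding protein, 3.26 ± 0.6 and Trp53 3.12 ± 0.867, again within their spread. The order in EVs was another, as described below. Exons were counted once over all annotated transcripts, so a gene with annotated exons that these cells do not use has a lower value per kb.

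The levels in cells varied more with the culture than with ethanol. Of the variance of log2 CPM over the 18 cell libraries, the culture accounted for 62.4% (Zmat3) to 95.3% (Trp53inp1), and dose for 0.0616% to 9.08%. Trp53inp1 ranged from 47.7 CPM in the female culture of set 4 to 188 in the female culture of set 3, and Cdkn1a from 21.1 in the male culture of set 3 to 71.6 in the male culture of set 5. Within cultures the members did not all move together. Log2 CPM was centred on the culture mean, and Pearson's r over 18 cell libraries was taken for the 21 pairs of target genes. It ran from -0.662 to 0.692 with a median of 0.05. With Trp53 itself, the centred r ran from -0.234 to 0.635. Centring removes the differences between the 6 cultures, so these values describe only the 3 libraries within each culture. How the members moved together between cultures is not covered, and the values were not tested.

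Trp53 had a lower level in all 6 cultures at either ethanol dose than in its control. The female cultures of sets 3, 4 and 5 had 36.6, 24.4 and 19.5 CPM without alcohol, 30.5, 22.2 and 19.1 at 120 mg/dL and 30.7, 21.1 and 18.4 at 320 mg/dL. The male cultures had 31.6, 18.5 and 17.9 CPM without alcohol, 27.3, 16.8 and 17.0 at 120 mg/dL and 29.3, 15.4 and 17.6 at 320 mg/dL. The groups of 6 overlap throughout, with the cultures of set 3 high at every dose, and the difference appears only within cultures. With the culture as a block, edgeR gave a log2 fold change (log2FC) of -0.15 ± 0.054 (SE) at 120 mg/dL and -0.16 ± 0.055 at 320 mg/dL, a difference of -10.6%, with adjusted p = 1 and 0.434. An exact sign-flip permutation test over the 6 cultures (two-sided) gave p = 0.03125 for either dose, the smallest value that 64 sign patterns allow, before any adjustment.

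Cdkn1a, the target through which p53 halts the cell cycle, had the largest difference at 320 mg/dL in cells. The female cultures of sets 3, 4 and 5 had 63.1, 49.95 and 55.7 CPM without alcohol, 49.6, 40.8 and 42.2 at 120 mg/dL and 51.1, 43.9 and 38.4 at 320 mg/dL. The male cultures had 23.2, 52.6 and 71.6 CPM without alcohol, 21.6, 55.1 and 64.7 at 120 mg/dL and 21.1, 47.1 and 58.1 at 320 mg/dL. Every culture was lower at 320 mg/dL than in its control, and all but the male culture of set 4 were lower at 120 mg/dL. The dose groups overlap, and the male culture of set 3 was low throughout. The log2FC was -0.28 ± 0.07 (SE, edgeR, adjusted p = 0.289) at 320 mg/dL, a difference of -17.4%, and -0.21 ± 0.07 (adjusted p = 1) at 120 mg/dL. The exact permutation p over 6 cultures was 0.03125 at 320 mg/dL and 0.0625 at 120 mg/dL. DESeq2, run as an alternative, called Cdkn1a at 320 mg/dL with a log2FC of -0.27 and adjusted p = 0.0425, beside 0.308% of all genes. As a trend over the 3 doses, Cdkn1a had a slope of -0.08 log2 units per 100 mg/dL (edgeR, adjusted p = 0.279) and Trp53 of -0.05 (adjusted p = 0.451).

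The other targets showed no common direction in cells. Mdm2 was lower at 320 mg/dL than in control in all 3 female cultures (65.7 against 101, 41.9 against 50.6 and 66.2 against 76.0 CPM) and higher in all 3 male cultures (57.4 against 42.5, 83.7 against 77.4 and 71.0 against 66.7), and its log2FC was -0.08 ± 0.109. Sesn1 was higher at 320 mg/dL in 5 of 6 cultures, from 14.1, 9.68, 14.3, 17.95, 20.1 and 20.7 CPM without alcohol (female then male cultures, sets in order) to 13.6, 10.2, 20.2, 17.96, 25.7 and 24.1, with a log2FC of 0.18 ± 0.091 (edgeR, adjusted p = 0.632). Zmat3 had a log2FC of -0.19 ± 0.104 (adjusted p = 0.671), with 3 of 6 cultures lower. Ccng1, Trp53inp1 and Phlda3 differed by -0.02 ± 0.097, -0.13 ± 0.101 and -0.05 ± 0.087. At 120 mg/dL these 6 genes lay between -0.08 and 0.04.

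No member passed an adjusted p of 0.05 in cells at 120 mg/dL, at 320 mg/dL or as a trend, where 0%, 0% and 0.0854% of all tested genes did. At an unadjusted p under 0.05, Trp53 and Cdkn1a, 2 of 8, were counted in each of the 3 comparisons, beside 2.54%, 8.41% and 8.99% of all genes. At 320 mg/dL the median log2FC of the members was -0.107 and that of all tested genes -0.001. Of 58 further p53 pathway genes tested, 0 were called at either dose or as a trend.

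**Figure D1:**
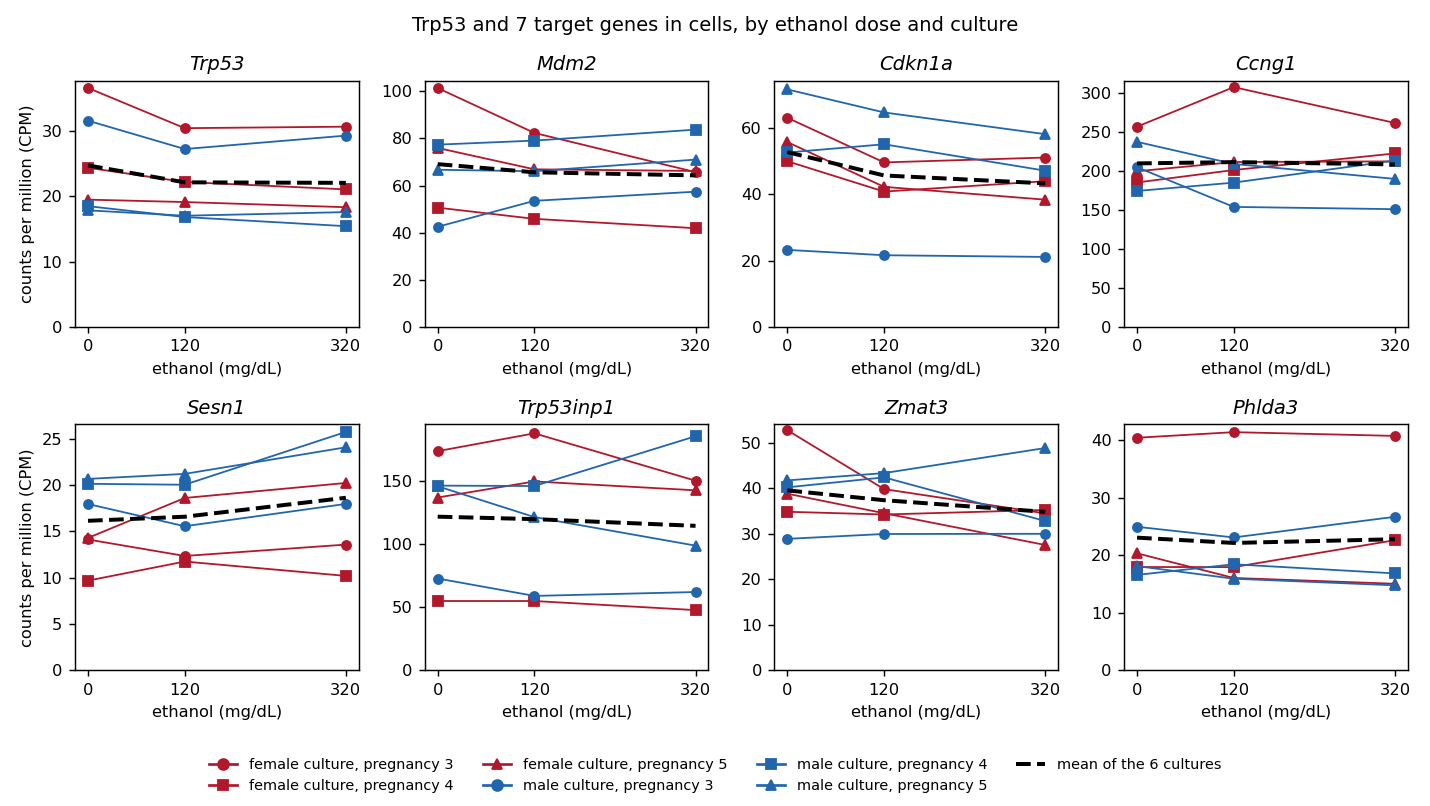
Level of Trp53 and its 7 targets in cells (CPM, vertical axis from 0) against ethanol dose (mg/dL), with 1 line per culture and the dashed line for the mean of the 6 cultures. The lines of Trp53 and Cdkn1a lie lower at 320 mg/dL than at 0 in all 6 cultures, and for most genes the cultures lie further apart than the doses.

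In EVs, Mdm2 and Zmat3 differed with ethanol in opposite directions, and both by more than any member did in cells. Mdm2 in EVs of the female cultures (sets 3, 4 and 5) was at 586, 233 and 827 CPM without alcohol, 1258, 192 and 1221 at 120 mg/dL and 1215, 323 and 1879 at 320 mg/dL. In EVs of the male cultures it was at 318, 349 and 109 CPM without alcohol, 930, 727 and 290 at 120 mg/dL and 343, 859 and 688 at 320 mg/dL. All 6 cultures were higher at 320 mg/dL than in control, by 0.11 to 2.66 log2 units, and 5 of 6 at 120 mg/dL, and the dose groups overlap since the cultures lay far apart, with the female culture of set 5 high at every dose. The log2FC was 1.2 ± 0.334 (SE) at 320 mg/dL, a fold of 2.3 (edgeR, adjusted p = 0.175), and 0.97 ± 0.333 at 120 mg/dL (adjusted p = 0.841). The exact permutation p over 6 cultures was 0.03125 and 0.0625. Leaving out a pregnancy gave a log2FC of 0.83 (without set 5) to 1.42 (without set 3) at 320 mg/dL and 0.64 (without set 3) to 1.27 (without set 4) at 120 mg/dL, always above 0.

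Zmat3 in EVs of the female cultures (sets 3, 4 and 5) was at 550, 357 and 198 CPM without alcohol, 382, 361 and 136 at 120 mg/dL and 368, 189 and 127 at 320 mg/dL. In EVs of the male cultures it was at 848, 570 and 647 CPM without alcohol, 376, 570 and 392 at 120 mg/dL and 463, 437 and 338 at 320 mg/dL. Every culture had less at 320 mg/dL than in its control, and at 120 mg/dL both cultures of set 4 were close to their control. The log2FC was -0.7 ± 0.161 at 320 mg/dL, a difference of -38.4% (edgeR, adjusted p = 0.141), and -0.45 ± 0.161 at 120 mg/dL (adjusted p = 0.841). The exact permutation p was 0.03125 at 320 mg/dL and 0.09375 at 120 mg/dL.

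Whether these genes were called depended on the test. DESeq2 called both genes in EVs at 320 mg/dL, Mdm2 with a log2FC of 1.21 (adjusted p = 0.00991) and Zmat3 with -0.69 (adjusted p = 3.71e-06), and it called Zmat3 at 120 mg/dL (adjusted p = 0.0306). DESeq2 called 0.902% of all genes at 320 mg/dL (267 of 29604) and 0.0439% at 120 mg/dL, where edgeR called 0.0758% (10 of 13193) and 0.00758%. Without the filter on low counts, edgeR also called Mdm2 at 320 mg/dL (adjusted p = 0.00336), beside 0.699% of all genes.

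The other 6 members in EVs were lower or higher by little beside their error. At 320 mg/dL, Ccng1 had a log2FC of 0.18 ± 0.154, Sesn1 of 0.16 ± 0.152, Trp53inp1 of 0.12 ± 0.125, Cdkn1a of -0.1 ± 0.118, Phlda3 of -0.17 ± 0.235 and Trp53 of 0.06 ± 0.237. Trp53 rested on 2 to 35 counts per EV library and Phlda3 on 1 to 66, where 2 counts have an exact Poisson interval of 0.242 to 7.22 (95%, counting error only), so that differences like those in cells were not detectable at this depth for these genes. No member passed the adjusted threshold in EVs at 120 mg/dL, at 320 mg/dL or as a trend, beside 0.00758%, 0.0758% and 0.0758% of all genes. Mdm2 and Zmat3, 2 of 8, had an unadjusted p under 0.05 in each of them, beside 5.94%, 10.8% and 10.7% of all genes. The comparisons of 120 and 320 mg/dL share their 6 control libraries, within cells and within EVs.

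**Figure D2:**
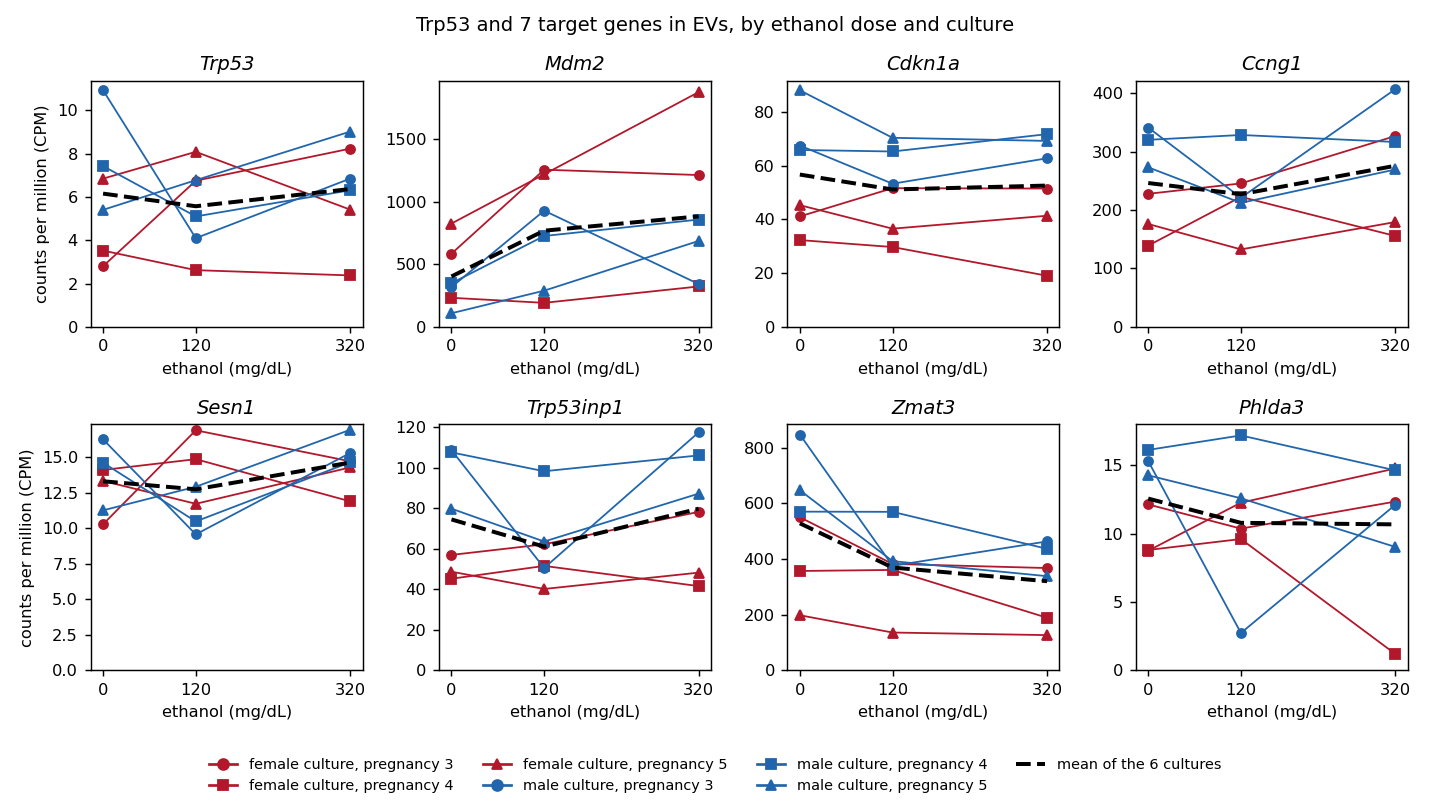
Level of Trp53 and its 7 targets in EVs (CPM, vertical axis from 0) against ethanol dose (mg/dL), with 1 line per culture and the dashed line for the mean of the 6 cultures. Mdm2 ends higher at 320 mg/dL than at 0 in all 6 cultures and Zmat3 lower in all 6.

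**Figure D3:**
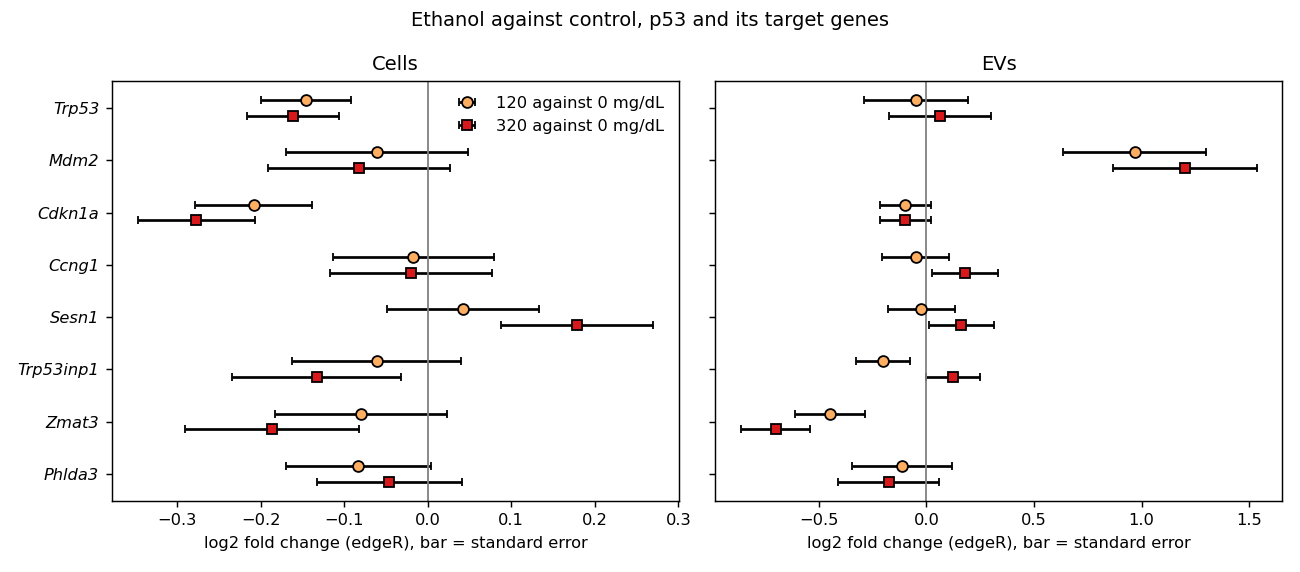
Log2 fold change of each gene at 120 (circles) and 320 mg/dL (squares) against control, with bars for the SE of the edgeR fit with culture as a block, in cells (left) and EVs (right, on a wider axis). At 320 mg/dL in cells, Cdkn1a lies furthest below 0 (-0.28), before Zmat3 (-0.19) and Trp53 (-0.16). In EVs, Mdm2 lies at 1.2 and Zmat3 at -0.7 for 320 mg/dL.

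The EV:cell ratio was examined next, since it sets each EV library against the cells it came from. For Mdm2 the ratio at 320 mg/dL differed from that in control by 1.22 ± 0.305 log2 units (edgeR interaction, adjusted p = 0.4), and 5 of 6 cultures were higher. At 120 mg/dL it differed by 0.95 (edgeR, adjusted p = 1). For Zmat3 the ratio at 320 mg/dL differed by -0.53 (edgeR, adjusted p = 1). Over all cultures, Mdm2 in cells was on average close to control, so its fitted difference in the ratio is nearly that in EVs. Single cultures departed from this, most in set 3. There the cells at 320 mg/dL differed by -0.63 in the female and 0.43 in the male culture. The ratio differed by 1.68 and -0.33 in these cultures, beside 1.05 and 0.11 in EVs. No member passed the adjusted threshold, beside 0.00875% of all genes at 120 mg/dL and 0% at 320 mg/dL. At an unadjusted p under 0.05 there were 1 of 8 members at 120 mg/dL (3.13% of all genes) and 2 of 8 at 320 mg/dL (4.66%). Run as alternatives, DESeq2 (1.24, adjusted p = 0.0145) and edgeR without a filter on low counts (1.25, adjusted p = 0.0077) called the ratio of Mdm2 at 320 mg/dL, beside 0.193% and 0.216% of all genes.

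Between EVs and cells the differences were much larger than those with ethanol. Zmat3 had 37.3 ± 6.86 CPM in cells (SD, n = 18) and 406 ± 186 in EVs (n = 18), and Mdm2 had 66.3 ± 15.8 in cells and 686 ± 477 in EVs. The lowest EV library of either gene lay above the highest cell library. How many of all genes separate in this way was not counted, and 81.8% of all tested genes were called between EVs and cells. The log2FC was 3.36 ± 0.173 for Zmat3, a fold of 10.3 (edgeR, adjusted p = 1.83e-19), and 3.24 ± 0.27 for Mdm2, a fold of 9.46 (adjusted p = 1.47e-13). This fit took the 36 libraries as independent, although the 3 doses of a culture are not. The same limit applies to the other members below. Over the 12 alternatives, some with a culture block, the largest adjusted p (edgeR or DESeq2) was 2.86e-07 for Zmat3 and 2.51e-05 for Mdm2. By culture, the difference ran from 2.17 to 4.16 log2 units for Zmat3 and from 2.04 to 4.15 for Mdm2.

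Trp53 was the member with the lowest share in EVs relative to cells. It had 23.0 ± 6.4 CPM in cells, from 15.4 to 36.6, and 6.03 ± 2.35 in EVs, from 2.38 to 10.9. Its log2FC was -1.85 ± 0.156, which is 3.6-fold lower (edgeR, adjusted p = 2.2e-13), and the 6 cultures lay between -2.99 and -1.33. So the transcript of the transcription factor was lower in EVs and that of its ligase Mdm2 higher, in each of the 6 cultures.

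Phlda3 and Trp53inp1 were also lower in EVs. Phlda3 had 22.7 ± 9.02 CPM in cells and 11.4 ± 4.26 in EVs (log2FC -0.93 ± 0.184, edgeR, adjusted p = 2.03e-05), lower in 6 of 6 cultures. Trp53inp1 had 119 ± 48.4 CPM in cells and 71.8 ± 26.5 in EVs (log2FC -0.77 ± 0.192, adjusted p = 0.000415), lower in 5 of 6 cultures. Both lost the call when every library was thinned to the smallest total, with log2FC of -0.21 (adjusted p = 0.318) for Phlda3 and -0.05 (adjusted p = 0.818) for Trp53inp1. Sesn1, at 17.1 ± 4.66 CPM in cells and 13.6 ± 2.26 in EVs, had a log2FC of -0.3 ± 0.109 (edgeR, adjusted p = 0.0113), but 2 of 6 cultures were higher. The direction of Sesn1 depended on the scaling, with 0.06 under median-of-ratios factors and 0.43 (adjusted p = 0.0199) after thinning, and its call was lost without set 5 (-0.17, adjusted p = 0.3) and in the control libraries alone (-0.42, adjusted p = 0.124).

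Cdkn1a (47.2 ± 14.4 CPM in cells, 53.5 ± 17.98 in EVs) and Ccng1 (210 ± 38.4 and 250 ± 78.4) did not pass the test, with log2FC of 0.15 (edgeR, adjusted p = 0.394) and 0.22 (adjusted p = 0.12). Both call and direction depended on the processing. Both genes were called higher in EVs with median-of-ratios factors (0.51 for Cdkn1a, adjusted p = 0.00176, and 0.58 for Ccng1, adjusted p = 2.78e-05) and by DESeq2 (0.51, adjusted p = 0.000944, and 0.59, adjusted p = 3.41e-07). They were also called after thinning (0.83, adjusted p = 2.01e-05, and 0.93, adjusted p = 5.28e-09). These settings called 81.3%, 74.9% and 77.5% of all genes. For either gene all 3 female cultures had less in EVs than in cells and all 3 male cultures more on this scale. In 4 other settings both log2FC were below 0, without a call, as low as -0.33 for Cdkn1a and -0.22 for Ccng1 with library totals, and with a block for each pair of EV and cell libraries at -0.08 and -0.06. Per kb of exon, Mdm2 stood first in EVs at 89.0 ± 61.9 CPM per kb, before Ccng1 at 56.8 ± 17.8 and Zmat3 at 35.5 ± 16.2, and these neighbours overlap in their spread. Trp53inp1 (9.77 ± 3.6), Cdkn1a (8.84 ± 2.97), Phlda3 (4.39 ± 1.65) and Sesn1 (2.69 ± 0.449) followed, and Trp53 was last at 0.818 ± 0.318.

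In this comparison 6 of 8 members passed the threshold, 2 higher and 4 lower, beside 81.8% of all tested genes (38.1% higher and 43.7% lower), so a call is no mark of the members. The median log2FC of the members was -0.079 and that of all genes -0.137. That median moved with the scaling, to 0.22 with median-of-ratios factors and -0.65 with library totals, and the share of higher among all calls from 46.6% to 56.4% and 35.4%, so differences between EVs and cells are relative to this scale. Mdm2, Zmat3 and Trp53 kept their direction and their call under all 12 alternatives. The summed CPM of NSC markers was also lower in EVs (659 to 1240 against 1900 to 3830). Most of this sum was Vim (median 1330 CPM in cells, 374 in EVs) and Fabp7 (803 and 230). Nes, Pax6, Hes1, Emx2 and Notch1 also had lower medians in EVs, whereas Hes5 (14.8 and 42.9) and Prom1 (24.7 and 26.7) had higher ones. The 354 vomeronasal receptor genes, which are silent in NSCs, summed to 39.4 to 149 CPM in EVs against 10.6 to 19 in cells. The part of the NSC markers or of the receptor genes in the members' differences was not tested.

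**Figure D4:**
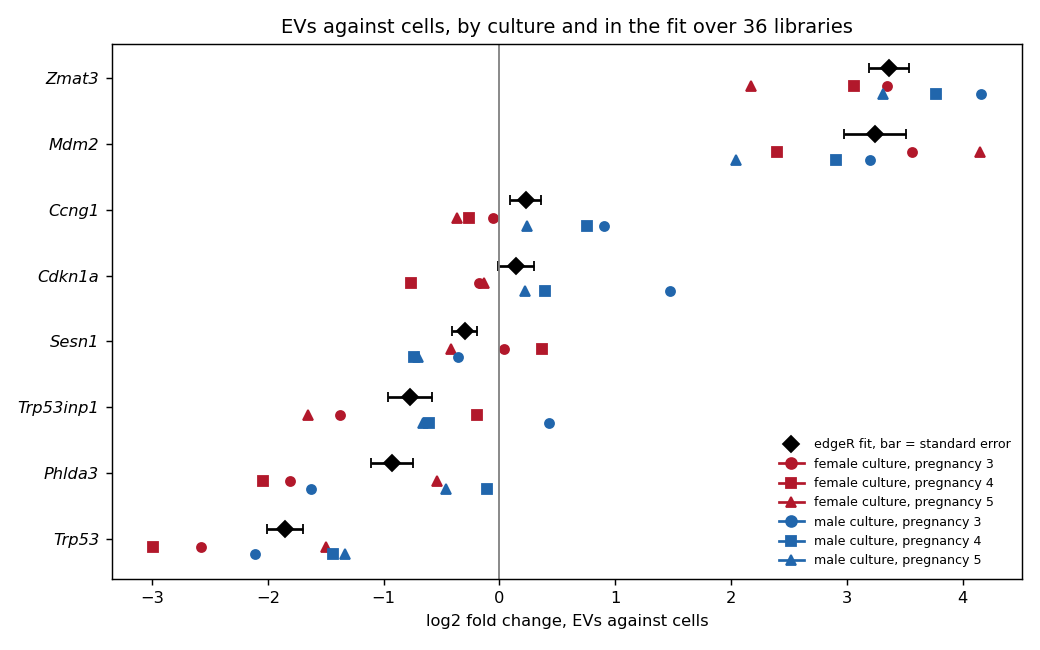
Log2 fold change of EVs against cells for the 8 genes, with the edgeR fit over 36 libraries (diamonds, bar for the SE) and each of the 6 cultures (coloured symbols). Zmat3 and Mdm2 lie at 2.04 or above in every culture, Trp53 lies at -1.33 or below in every culture, and the female and male symbols of Ccng1 and Cdkn1a fall on opposite sides of 0.

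The sexes were compared on counts summed over the 3 doses, so that each culture counted once, with 3 female against 3 male cultures. In EVs, Cdkn1a had 48.1, 27.0 and 41.1 CPM (mean over doses) in the female cultures of sets 3, 4 and 5 and 61.2, 67.6 and 75.9 in the male cultures. The 9 female EV libraries (19.0 to 51.6 CPM) lay below the 9 male ones (53.3 to 88.0), but these are 3 cultures per sex, each at 3 doses. The share of all genes that separate by sex in this way was not computed. The log2FC, female against male, was -0.69 ± 0.239 (edgeR, adjusted p = 0.315). Trp53inp1 in EVs had 65.8, 46.1 and 45.7 CPM in female and 92.3, 104 and 76.9 in male cultures, a log2FC of -0.7 ± 0.256 (edgeR, adjusted p = 0.315).

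In cells, Sesn1 had 13.3, 10.5 and 17.7 CPM in the female cultures and 17.2, 22.0 and 22.0 in the male cultures of sets 3, 4 and 5. It was lower in the female culture of each pregnancy, although the female culture of set 5 overlapped the male culture of set 3. The log2FC was -0.57 ± 0.228 (edgeR, adjusted p = 0.736). No member passed the adjusted threshold by sex, beside 0.0334% of all genes in cells and 0% in EVs. At an unadjusted p under 0.05 there were 1 of 8 members in cells (6.67% of all genes) and 2 of 8 in EVs (15%). Taking the 18 libraries of a location as independent, which counts each culture 3 times and calls 5.7% of all genes in cells and 12% in EVs, edgeR called Sesn1 in cells (-0.54, adjusted p = 0.0315) and Cdkn1a (-0.66, adjusted p = 0.0124) and Trp53inp1 (-0.59, adjusted p = 0.0162) in EVs.

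The wider p53 pathway was read in 60 further genes in 5 lists, of which 59 were in the files and 58 were tested between EVs and cells. There 15 were higher and 35 lower in EVs, 86.2% of those tested, beside 81.8% of all genes, and their median log2FC was -0.786, beside -0.137 for all genes. The split moved with the scaling, to 10 higher and 41 lower with library totals and, among the 43 that passed the filter after thinning, to 17 higher and 17 lower. In every comparison of ethanol doses, of the EV:cell ratio and of sex, 0 of these genes were called by edgeR.

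Among the regulators of p53, 6 of 18 were higher and 11 lower in EVs (median -0.828). Kat5, an acetyltransferase that modifies p53, reached 397 ± 209 CPM in EVs against 26.0 ± 3.24 in cells (SD over 18 libraries each), a log2FC of 3.9. Usp7, which removes ubiquitin from both Mdm2 and p53, had 1337 ± 778 and 101 ± 8.66 CPM, a log2FC of 3.72. The deacetylase Sirt1 (-2.25), the ubiquitin ligase Rchy1 (-1.58) and the damage kinase Atm (-1.58) were lower in EVs.

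Among targets that act on the cell cycle and on apoptosis, more genes were called lower than higher in EVs, as also over all genes (43.7% lower, 38.1% higher), and the difference from all genes was not tested. After thinning, the balance was 2 higher and 3 lower of 7 cell cycle genes (median -0.078) and 3 higher and 2 lower of 6 apoptosis genes (median 0.29). In the fit without thinning, of 9 cell cycle genes, 1 was higher and 5 were lower (median -0.81), among them the kinases Plk2 (-2.39) and Plk3 (-1.52) and Rprm (-1.82), which acts at the G2 checkpoint. Of 12 apoptosis genes, 1 was higher and 8 were lower (median -1.2). The receptor gene Eda2r had 9.55 ± 2.82 CPM in EVs and 106 ± 42.1 in cells (log2FC -3.48), the death receptor gene Fas 1.18 ± 0.808 and 8.93 ± 3.78 (-3.04), and Pmaip1, which encodes Noxa, had a log2FC of -1.59. The exception was Ei24, with 242 ± 117 CPM in EVs and 29.5 ± 2.79 in cells (2.95).

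Of 8 DNA repair genes, 7 were lower in EVs and 1, the damage sensor Xpc of nucleotide excision repair, was higher (1.66). With median-of-ratios factors and with DESeq2, 5 of these 8 were called lower, and after thinning 3 of 7. Pcna, the sliding clamp of DNA polymerases, had 9.16 ± 3.51 CPM in EVs and 58.9 ± 33.0 in cells (-2.68). The translesion polymerase gene Polk had a log2FC of -1.83 and Rps27l of -1.71. Metabolic and redox targets were divided, with 6 of 11 higher and 4 lower (median 0.226), or 3 higher and 5 lower with library totals (median -0.293). Sesn2, a relative of Sesn1, was higher (1.44), as was Fdxr, the mitochondrial ferredoxin reductase (1.06). The epoxide hydrolase Ephx1 (-2.65), the glutathione peroxidase Gpx1 (-1.8) and Dcxr (-0.85) were lower. Dram1, a lysosomal protein linked to autophagy, had the largest log2FC (4.76), but its EV level of 40.3 CPM had an SD of 118.

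Relatives of the members by family were divided as well, with 5 of 12 higher and 5 lower (median 0.043), or 4 higher and 6 lower with library totals (median -0.447). The p53 relatives Trp63 (2.8) and Trp73 (2.72) were higher in EVs, from levels of 1.28 and 0.442 CPM in cells, in contrast to Trp53. Both are near the floor in cells, and neither passed the filter after thinning. The vomeronasal receptor genes silent in NSCs were higher in EVs too (median sum 75.3 against 15.4 CPM). Whether Trp63 and Trp73 differ from such low genes was not tested. Phlda1 (-2.69), Cdkn1b (-1.19) and Zmat1 (-1.14) were lower in EVs. Of the 27 genes named from the 6 lists, 0 changed direction under any of the 12 alternatives in which they were tested. Under every alternative, 18 kept the call. A gene not tested in a setting, or without an adjusted p there, counted as not keeping it.

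**Figure D5:**
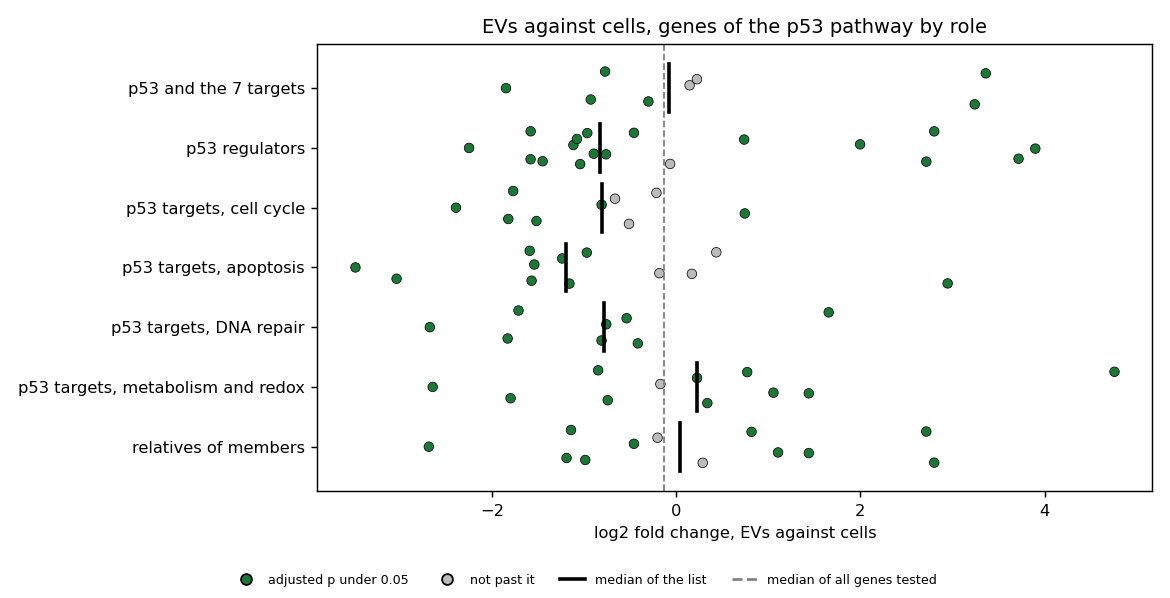
Log2 fold change of EVs against cells (horizontal axis) for the members and for 6 lists of p53 pathway genes, with 1 point per gene, green where the adjusted p passed 0.05. Black bars mark the list medians, and the dashed line marks the median of all tested genes at -0.137.

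The genes whose pattern in cells was most like the mean of the 7 targets, over 18 cell libraries and after centring on the culture, were Hvcn1 (Pearson's r = 0.898), Gm52565 (0.894), Helz2 (0.886), C130046K22Rik (0.86) and Ccdc12 (0.856). The libraries share cultures and doses, and no p was computed. For EVs, log2 CPM was not centred on the culture, so these r values also hold differences between the 6 cultures. The culture accounted for 63.1% of the variance of Mdm2 and 75.6% of that of Zmat3 in EVs. By this measure, chosen after the values were seen, Mdm2 was most like Degs1 (r of log2 CPM 0.94 over 18 EV libraries), Col2a1 (0.92) and Ldlrad3 (0.906). Zmat3 was most like Mafg (0.983), Slc38a1 (0.983) and G3bp1 (0.981). Mdm2 and Zmat3 had an r of -0.504 with each other, and Zmat3 of 0.742 with Ccng1 and 0.732 with Trp53inp1.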

How the data were processed

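Counts per gene were made by the authors and deposited as whole numbers, without normalization. Per the study's methods, ribosomal RNA was depleted, stranded libraries were made, and reads were trimmed, deduplicated, aligned to mm39 with STAR and counted with HTSeq. EVs were collected by ultracentrifugation after filtration. The submitters' processing notes also name Trimmomatic and DESeq2 2.11.40.6.

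In R 4.3.3, edgeR 4.0.16 dropped low genes with filterByExpr (count of at least 10, total of at least 15), applied TMM scaling and used quasi-likelihood F tests on all genes passing the filter, with Benjamini-Hochberg adjusted p under 0.05. Doses were compared within cells or EVs with the culture as a block, and trends over dose likewise. The contrast of EVs with cells carried terms for sex and dose and no block for the culture. The EV:cell ratio was fitted as an interaction, with the pair of libraries as a block and a location by culture term. The sexes were compared on counts summed over doses. Log2 CPM used a prior count of 1. The exact sign-flip test took the 6 cultures as units. Cells at different doses are libraries of 1 culture, and the 6 cultures come from 3 pregnancies.

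Pairing was checked as the correlation of libraries' deviations from the mean of their location and dose. That mean was taken over both sexes, so differences between the sexes remain in these r values. Median r between a culture's dosed and control libraries was 0.633 and 0.618 in cells and 0.294 and 0.443 in EVs, with every pair over 0.1, so the culture was used as a block. Between female and male libraries of the same pregnancy it was -0.043 in cells and -0.125 in EVs, and between EV and cell libraries of the same culture and dose 0.0467.

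All 8 members are named, and from each list the 3 genes with the largest difference in each direction among those called between EVs and cells that differed one way in all 6 cultures, with 5 genes of like pattern. The members and lists were chosen with earlier results of these data known. Alternatives were DESeq2 1.42.0, other scalings, no filter, thinning, leaving out a pregnancy, and other blocks and samples. Leaving out the 4 EV libraries with the lowest totals (959217 to 1359617 counts) was chosen after seeing the data. Only some of the edgeR fits were tested on simulated data. The fits by sex, DESeq2, the other blocks and the sign-flip test were not.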

Additional observations from a re-analysis of the deposited data

Results flagged for a closer look

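In cells, 4 values stood apart from the other 5 cultures of their dose by Dixon's criterion, among 48 groups of 6 examined, and chance sets apart about 1 group in 20. Ccng1 was at 308 CPM in the female culture of set 3 at 120 mg/dL, with the nearest culture at 212. Zmat3 was at 48.9 CPM in the male culture of set 5 at 320 mg/dL, with the nearest at 35.2. Phlda3 was at 40.4 CPM in the female culture of set 3 without alcohol and at 41.4 at 120 mg/dL, with the nearest cultures at 24.9 and 23.1.

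In 5 of 56 pairs of gene and contrast, all 3 female cultures differed one way and all 3 male cultures the other. Mdm2 in cells at 320 mg/dL differed from control by a mean of -0.37 log2 units in female and 0.21 in male cultures, a difference between the sexes of -0.58. Zmat3 in cells at 120 mg/dL differed by -0.2 and 0.06, a difference of -0.26. Cdkn1a differed between EVs and cells by -0.36 in female and 0.69 in male cultures (-1.05), and its EV:cell ratio at 120 mg/dL by 0.31 and -0.16 (0.48). Ccng1 differed between EVs and cells by -0.23 and 0.63 (-0.86). The difference between the sexes was not tested for any of these, and its cause was not tested.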

How the results depend on the processing

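Of 856 values of the 88 member results under 18 alternatives, 759 kept direction and side of the threshold, 24 passed it only under the alternative, 4 lost it and 69 changed direction, of which 1, Sesn1 after thinning, was past the threshold. The cause was not tested for any of these. Counts of called members, 0 by edgeR for ethanol, ratio and sex, were 1 in cells at 320 mg/dL (Cdkn1a), 1 in EVs at 120 mg/dL (Zmat3), 2 at 320 mg/dL and 2 as the trend (Mdm2 and Zmat3) and 1 in the ratio at 320 mg/dL (Mdm2) with DESeq2. Without the filter they were 1 in EVs at 320 mg/dL, 1 as the trend and 1 in the ratio at 320 mg/dL, each Mdm2. With 18 libraries as independent they were 1 by sex in cells and 2 in EVs. Between EVs and cells, 5 to 7 members were called under the alternatives, with Cdkn1a and Ccng1 gained under median-of-ratios factors, DESeq2 and thinning, Sesn1 lost without set 5 and in control libraries alone, and Phlda3 and Trp53inp1 lost after thinning. At the depth of the EVs, Trp53 and Phlda3 rest on few counts.

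Directions that changed are given as log2FC. With median-of-ratios factors they were Sesn1 0.06 between EVs and cells and Mdm2 -0.01 by sex in cells. With DESeq2 they were Sesn1 0.05 between EVs and cells, Mdm2 -0.04 by sex in cells and Sesn1 -0.01 by sex in EVs. Without the filter they were Cdkn1a -0.19 and Ccng1 -0.1 between EVs and cells and Mdm2 -0.01 by sex in cells. With library totals they were Sesn1 -0.01 in cells at 120 mg/dL, Trp53 -0.13, Ccng1 -0.04, Sesn1 -0.08 and Trp53inp1 -0.1 in EVs at 320 mg/dL, and Trp53 -0.03, Ccng1 0, Sesn1 -0.01 and Trp53inp1 -0.02 as the trend in EVs. They were also Cdkn1a -0.33 and Ccng1 -0.22 between EVs and cells, Trp53 -0.16 and Cdkn1a -0.11 in the ratio at 120 mg/dL, Mdm2 -0.03 by sex in cells and Sesn1 0 by sex in EVs. Thinning gave Sesn1 0.43 between EVs and cells. Without the 4 EV libraries of lowest total they were Phlda3 0.02 in EVs at 120 mg/dL, Trp53 -0.02 at 320 mg/dL and 0 as the trend, Trp53 -0.05, Cdkn1a -0.06 and Phlda3 0.06 in the ratio at 120 mg/dL and Phlda3 0.06 at 320 mg/dL.

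With a block for each pair of EV and cell libraries, Cdkn1a had -0.08 and Ccng1 -0.06 between EVs and cells, with counts summed over doses and the culture as a block -0.22 and -0.17, and in control libraries alone with this block Cdkn1a had -0.05. With the pregnancy as a block, Mdm2 had -0.03 and Trp53inp1 -0.01 by sex in cells. Adding the pair block, or removing the culture block from the dose comparisons (0 members called), changed no call.

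Leaving out a pregnancy, directions changed within these ranges, for Ccng1 -0.07 to 0.03, Sesn1 -0.04 to 0.18 and Phlda3 -0.15 to 0.01 in cells at 120 mg/dL, Ccng1 -0.17 to 0.09 and Phlda3 -0.16 to 0.11 at 320 mg/dL, and Ccng1 -0.05 to 0.03 and Phlda3 -0.04 to 0.04 as the trend. In EVs they were Phlda3 -0.26 to 0.08, Trp53 -0.35 to 0.15, Sesn1 -0.12 to 0.12, Cdkn1a -0.21 to 0.01 and Ccng1 -0.24 to 0.1 at 120 mg/dL, Trp53 -0.09 to 0.18 at 320 mg/dL, and Trp53 -0.01 to 0.05 and Cdkn1a -0.05 to 0 as the trend. In the ratio they were Cdkn1a -0.03 to 0.12, Phlda3 -0.41 to 0.18, Trp53 -0.22 to 0.18 and Ccng1 -0.28 to 0.04 at 120 mg/dL, and Sesn1 -0.1 to 0.06 and Phlda3 -0.44 to 0.07 at 320 mg/dL. By sex in cells they were Mdm2 -0.33 to 0.35, Cdkn1a -0.36 to 0.41, Trp53inp1 -0.52 to 0.69 and Zmat3 -0.27 to 0.17.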
